A study of Mus musculus with 8 samples.

Results

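The genes described here are the 78 protein-coding mouse genes whose symbols begin with Mrpl or Mrps and a digit, which encode proteins of the mitochondrial ribosome, out of 21883 protein-coding genes placed on a chromosome in RefSeq (build mm10, GRCm38.p6). They were chosen by symbol alone, and their RXR peaks are those with the summit within 10 kb of either gene end. The mitochondrial ribosome translates the few messenger RNAs made from mitochondrial DNA, all of which encode core subunits of the respiratory chain and ATP synthase. Its RNA is mitochondrial, but all of its proteins are encoded in the nucleus, made in the cytosol and imported, so the making of the respiratory chain in heart cells draws on both genomes. RXR, the retinoid X receptors, belong to the nuclear receptors and mostly bind DNA paired with other members of that family, such as the fatty acid-sensing PPARs and the thyroid hormone receptors, at repeats of the hexamer AGGTCA.

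RXR was mapped by chromatin immunoprecipitation and sequencing in whole hearts of newborn mice (postnatal day 0). The edKO hearts were labelled as lacking Rxra and Rxrb in cardiomyocytes, and the WT hearts as wild type. There were 2 hearts of each genotype, numbered 3 and 4, each a separate biological replicate with its own immunoprecipitate and input. No source used here gives the allele or Cre driver behind the deletion. By the label the other cells of an edKO heart keep both genes, which was not measured. Peak lists carry no transcript level, so the deletion itself and the cell types could be looked at only through peaks: of the cardiomyocyte marker genes 7 of 10 had a region in both WT hearts, of the endothelial 3 of 6, of the fibroblast 1 of 6 and of the blood and macrophage markers 1 of 6, against 15.2% of all protein-coding genes. Regions were placed by the summit of WT replicate 3, and by its own summits WT replicate 4 had a peak at 2 of the 6 endothelial markers. Within 1 kb a shared region lay at 3 of 10 cardiomyocyte, 1 of 6 endothelial, 0 of 6 fibroblast and 0 of 6 blood and macrophage markers. The share of all genes at that distance was 8.38%. The cardiomyocyte markers Myh6 and Myh7 lie side by side and had the same strongest region. In edKO replicate 4 a peak lay at 3 of the 10 cardiomyocyte markers, against 0.58% of all genes, and in edKO replicate 3 at 0. The lists held 8 and 127 peaks in edKO replicates 3 and 4, and 19129 and 4697 in WT replicates 3 and 4. Sequencing depth could be approached only through the lowest local background among the peaks of a list. It was 3.13 and 2.96 fragments per position in the edKO immunoprecipitates and 2.48 and 2.40 in the WT ones. A lowest value over 8 or 127 peaks can lie above one over 19129 or 4697, so these values do not rank the hearts by depth.

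RXR regions lay directly at the transcription starts of several of these genes, and the 250 bases before a start (less where another gene began sooner) are shown for those with a summit closest to it. The runs are RefSeq sequence of GRCm38.p6, 5′ to 3′ on the strand of the gene, with only the bases outside every annotated gene, and end at the base before the start. Capitals mark AGGTCA or its reverse complement TGACCT.
Mrps30, chr13:118387253-118387502, minus strand: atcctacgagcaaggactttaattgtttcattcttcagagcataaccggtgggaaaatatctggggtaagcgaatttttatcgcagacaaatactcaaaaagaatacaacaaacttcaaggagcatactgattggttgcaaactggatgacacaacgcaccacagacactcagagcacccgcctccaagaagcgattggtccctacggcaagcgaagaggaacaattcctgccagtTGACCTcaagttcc
Mrpl46 (the gap shared with Mrps11), chr7:78783090-78783130, minus strand: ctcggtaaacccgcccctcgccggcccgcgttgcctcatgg
Mrpl55, chr11:59202432-59202485, plus strand: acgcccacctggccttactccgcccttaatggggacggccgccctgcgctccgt
Mrps33, chr6:39810937-39811186, minus strand: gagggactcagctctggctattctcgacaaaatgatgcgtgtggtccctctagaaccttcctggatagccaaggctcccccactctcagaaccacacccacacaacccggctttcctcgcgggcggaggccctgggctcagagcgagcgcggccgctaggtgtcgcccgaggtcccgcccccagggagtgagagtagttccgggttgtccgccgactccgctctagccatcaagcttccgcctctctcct
Mrpl40, chr16:18876638-18876749, minus strand: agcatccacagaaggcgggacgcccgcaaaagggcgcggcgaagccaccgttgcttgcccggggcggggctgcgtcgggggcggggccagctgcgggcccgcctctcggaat
Mrps36, chr13:100744660-100744909, minus strand: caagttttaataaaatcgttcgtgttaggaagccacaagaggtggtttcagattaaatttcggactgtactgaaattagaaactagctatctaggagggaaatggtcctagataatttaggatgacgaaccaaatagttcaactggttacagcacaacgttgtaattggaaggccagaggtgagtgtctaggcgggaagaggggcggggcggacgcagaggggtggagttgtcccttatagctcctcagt
The Mrps30 run held 1 hexamer, whose last base was the 9th before the start, and the summit of WT replicate 3 lay 5 bp before the start. None of the other 5 runs held any of the motifs searched. The run of Mrpl46, 41 bases long, is the whole gap between it and Mrps11, which are transcribed away from each other. The Mrpl45 summit lay 29 bp downstream of a listed start, but the bases before that start are inside the annotated gene and are not shown.

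Comparing the genotypes asks how much of the RXR signal at these genes depends on Rxra and Rxrb in cardiomyocytes. No Mrpl or Mrps gene had a peak in either edKO heart: 0 of 78 in edKO replicate 3, where 0.0548% of all protein-coding genes had one, and 0 of 78 in edKO replicate 4, where 0.58% had one. In WT replicate 3 a peak lay at 55 of the 78 genes (70.5%), against 42.4% of all genes. In WT replicate 4 it was 21 genes (26.9%), against 15.8% of all genes. Counted as peaks, edKO replicates 3 and 4 had 0 and 0, and WT replicates 3 and 4 had 85 and 20. The genotypes did not overlap, and neither did their whole lists, with 8 and 127 peaks in edKO hearts and 19129 and 4697 in WT hearts. With edKO peaks at so few of all genes, their absence here does not set Mrpl and Mrps genes apart. The WT hearts differed by 4.25 times, close to the 4.07 times between their whole lists. The mean was 0 ± 0 peaks in edKO hearts and 52.5 ± 46.0 in WT hearts (SD, n = 2 each), and the two-sided exact permutation test gave p = 0.333, the smallest that 2 hearts against 2 can give.

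**Figure D1:**
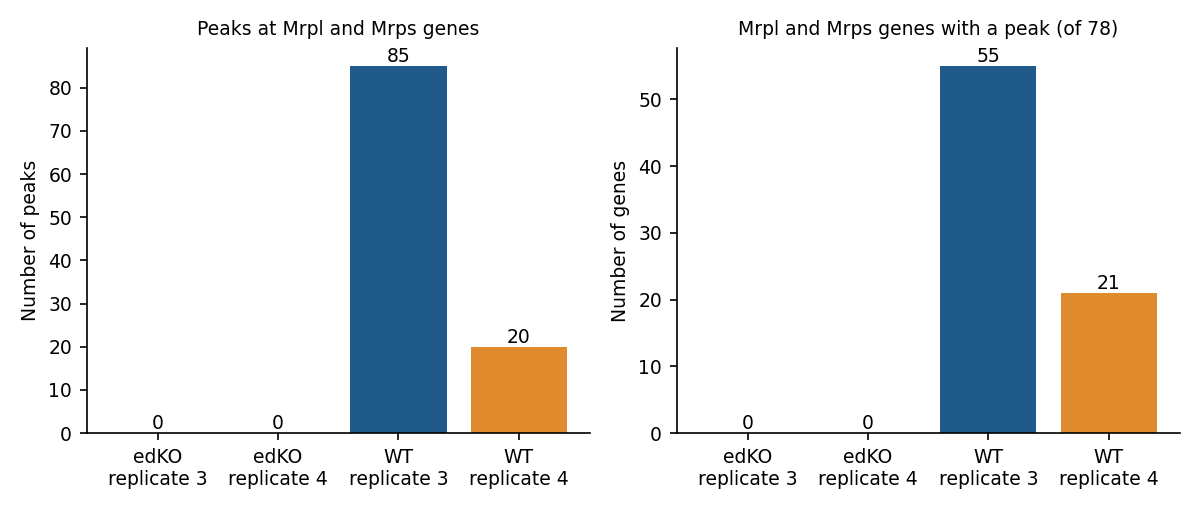
Peaks with the summit within 10 kb of either end of an Mrpl or Mrps gene (left, number of peaks) and genes with such a peak (right, number of genes), 1 bar per heart. Both edKO hearts stand at 0, and the WT hearts at 85 and 20 peaks and at 55 and 21 genes.

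The edKO peaks nearest to any of these genes were 32.6 kb away from Mrpl21 in edKO replicate 4 and 336 kb away from the nearest gene end in edKO replicate 3. The lowest −log10 p of any peak was 9.53 in edKO replicate 3 and 6.03 in edKO replicate 4, against 3.85 and 4.70 in WT replicates 3 and 4. These lowest values need not be the cutoffs of the lists. The lowest −log10 q was 3.53 in edKO replicate 3, against 1.47 in edKO replicate 4 and 1.37 and 1.57 in WT replicates 3 and 4. Of the 19 regions shared by the WT hearts, 12 had a −log10 p in WT replicate 4 above the lowest of edKO replicate 3, and 18 above the lowest of edKO replicate 4. In WT replicate 3 all 19 lay above both edKO values. The fragments that edKO hearts had at these places are not in the lists, so a weaker signal there could not be measured. In whole hearts, less binding per cell and fewer cells with binding cannot be told apart.

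Regions with overlapping peaks in both WT hearts were the basis for the description of single genes. The 19 shared regions lay at 20 of the 78 genes (25.6%), against 15.2% of all protein-coding genes, and 1 of them served both Mrps11 and Mrpl46. A further 34 genes had a peak in WT replicate 3 alone, 23 had none in either heart, and none had a peak in WT replicate 4 alone. Mrpl41, which encodes a protein of the large subunit, had a peak in each WT heart, but these did not overlap: its summits lay 881 bp (WT replicate 3, fold enrichment 4.30) and 51 bp (WT replicate 4, 4.67) from the gene. Genes with large-subunit names had a shared region in 13 of 49 cases (26.5%) and those with small-subunit names in 7 of 29 (24.1%). A WT replicate 3 peak was present at 37 of 49 (75.5%) and 18 of 29 (62.1%). Names are not a safe guide to place, since the product of Mrps30 sits in the large subunit of the mammalian mitochondrial ribosome and that of Mrps36 is known as a subunit of the 2-oxoglutarate dehydrogenase complex.

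The regions fell into a near and a far kind by position. At 13 genes the summit lay within 1000 bp of a gene end (16.7% of the 78, against 8.38% of all genes), and at Mrpl18 it lay inside the gene, 1476 bp from the nearer end. At the other 6 it lay outside the gene, 3209 to 8331 bp away, and the nearest gene was a neighbour, 42 to 439 bp from the summit. All of these but Mrpl24 also had a WT replicate 3 peak, in no shared region, within 1000 bp of a gene end. The distance was 77 bp at Mrpl12 (fold enrichment 7.97), 162 bp at Mrps34 (7.75) and 365 bp at Mrps7 (8.04). It was 37 bp at Mrpl35 (4.68), and 64 and 192 bp at Mrpl58 (4.26 and 4.58). At Mrpl12 and Mrps34 the shared region was lower in that heart (6.17 and 7.69). Of the 20 gene and region pairs 9 (45.0%) had the summit within 100 bp of the gene end, against 14.5% of the 3943 pairs of all genes. Counted per region, with the nearest Mrpl or Mrps gene set beside the nearest of any gene, it was 8 of 19 (42.1%), against 20.6% of all regions near genes. Within 1000 bp the shares per region were 63.2%, against 61.7%. In WT replicate 3, 48 of 86 pairs (55.8%) lay within 1000 bp, against 43.7% for all genes, but per peak the order was the other way, with 55.3% against 57.5%. These genes were short and crowded, with a median length of 7691 bp (17170 bp for all genes) and a median of 2 other protein-coding genes within 10 kb (1 for all genes), and the part of length and crowding in these shares was not tested.

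**Figure D2:**
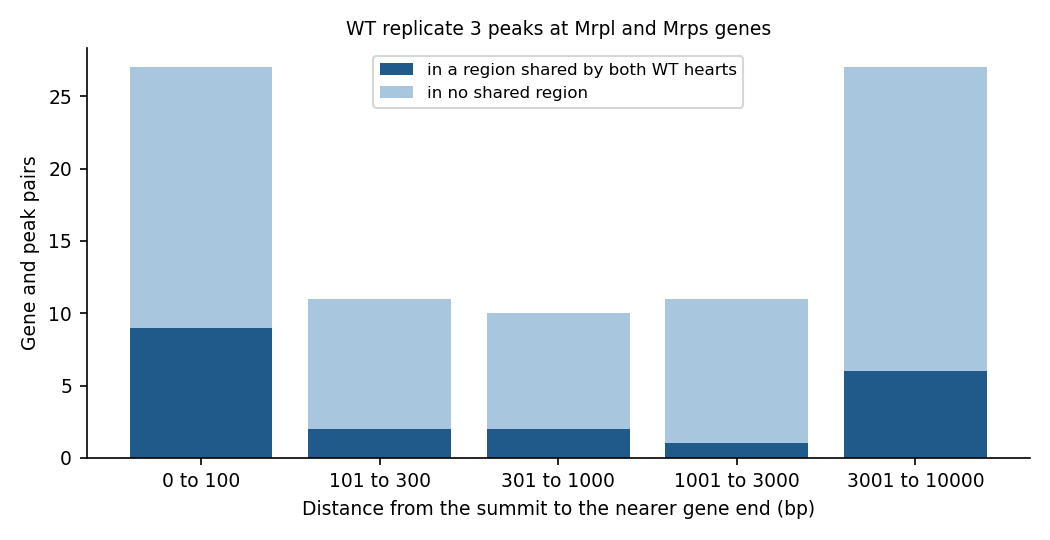
Distance in bp from the summit to the nearer gene end (horizontal) for the 86 pairs of an Mrpl or Mrps gene and a WT replicate 3 peak (vertical, number of pairs), dark where the peak belongs to a region shared by both WT hearts. The bins at 0 to 100 bp and over 3000 bp hold 27 pairs each, of which 9 and 6 are shared.

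Mrps30 carried the strongest of these regions, on chromosome 13 from 118386633 to 118387470. Its fold enrichment, the authors' ratio of the pileup at the summit to the local background, reached 21.8 in WT replicate 3 but 13.1 in WT replicate 4. The summits rested on 75 fragments in WT replicate 3 (95% Poisson interval 59.0 to 94.01) and 80 in WT replicate 4 (63.4 to 99.6), and lay 13 bp apart. It stood above 98.1% of the peaks of WT replicate 3 and 93.7% of those of WT replicate 4. The nearest other protein-coding gene end was that of Fgf10, 327442 bp away.

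Among large-subunit genes, Mrpl34 stood at 17.2-fold in WT replicate 3 and 10.2-fold in WT replicate 4 (59 and 35 fragments), with the summit 259 bp before its start and 40 bp inside the neighbouring gene Abhd8. This region lay on chromosome 8 from 71464400 to 71465128. Mrpl45, whose product lies at the exit of the ribosome's peptide tunnel, had 12.1 and 12.5 (56 and 42 fragments), nearly the same value in both hearts, on chromosome 11 from 97315491 to 97315940. Mrpl46 had 17.5 and 5.81 (65 and 23 fragments), the widest gap in fold enrichment between the hearts. Its fragment intervals were 50.2 to 82.8 and 14.6 to 34.5. Fragments were not scaled for the depth of each heart, so these intervals cannot show a difference between the hearts. The Mrpl46 region lay on chromosome 7 from 78782900 to 78783481. Mrpl40 had 8.08 and 6.82 (28 and 30 fragments), with the summit 47 bp inside the gene and 160 bp from Hira, a histone chaperone gene, on chromosome 16 from 18876229 to 18876771. Mrpl11, which encodes a protein of the stalk base, had 6.60 and 7.30 (22 and 24 fragments), 68 bp outside the gene, on chromosome 19 from 4961898 to 4962507. Among large-subunit genes with the summit within 1000 bp, those at the low end were Mrpl55 (8.61 and 3.87, 29 and 27 fragments), Mrpl36 (7.47 and 4.07, 41 and 20 fragments) and Mrpl48 (5.57 and 3.68, 20 and 18 fragments). The Mrpl36 summit was 82 bp inside the gene and 103 bp from Ndufs6, a complex I gene, so 1 region covers the ends of both genes. The Mrpl48 summit lay 183 bp downstream of a listed start and 136 bp from Rab6a, which encodes a GTPase of the Golgi.

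Among genes with small-subunit names, Mrps18b had 13.1 (WT replicate 3) and 10.5 (WT replicate 4; 85 and 64 fragments, the most of any region here in WT replicate 3), 266 bp before its start and 194 bp inside Ppp1r10, which encodes a regulatory subunit of protein phosphatase 1. This region lay on chromosome 17 from 35916181 to 35917067. Mrps11 shares the Mrpl46 region, and its start was 49 bp from that summit. Mrps36 had 11.5 and 7.48 (39 and 33 fragments), with the summit 97 bp inside the gene and the nearest other protein-coding gene end, that of Cdk7, 13620 bp away, on chromosome 13 from 100744107 to 100744759. Mrps33 had 8.18 and 4.60 (45 and 18 fragments), with the summit 27 bp downstream of its start, on chromosome 6 from 39810490 to 39811131. In WT replicate 4 the Mrps33 value stood above only 15.2% of that list.

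The 6 regions outside and farther from the genes lay at the ends of other genes, 3 of which (Atp5h, Slc25a10 and Immt) also encode mitochondrial proteins. How often other regions lie at such genes was not counted, so no pattern can be read from this. The region counted for Mrpl58, whose product frees stalled mitochondrial ribosomes, was 7203 bp from it and 42 bp inside Atp5h, which encodes a subunit of ATP synthase, on chromosome 11 from 115419687 to 115420230 (8.32 in WT replicate 3 and 4.60 in WT replicate 4, 28 and 18 fragments). That of Mrpl12, which encodes the stalk protein, was 3209 bp away and 126 bp inside Slc25a10, the mitochondrial dicarboxylate carrier gene, on chromosome 11 from 120491780 to 120492225 (6.17 and 8.46, 28 and 28 fragments). That of Mrpl35 was 7375 bp away and 68 bp inside Immt, which encodes a scaffold of the mitochondrial cristae junctions, on chromosome 6 from 71830921 to 71831518 (6.57 and 6.29, 42 and 25 fragments). Mrpl24 had its region 6737 bp away and 127 bp from Isg20l2 (12.6 and 7.59, 43 and 25 fragments). Mrps34 had its region 8331 bp away and 439 bp from Nubp2, an iron-sulfur protein assembly gene (7.69 and 9.34, 28 and 31 fragments), and was the gene just inside the 10 kb limit. Mrpl53 was just outside it, at 12029 bp (4.88 and 5.70). Mrps7 had its region 4812 bp away and 121 bp inside Mif4gd (8.61 and 4.45, 29 and 22 fragments). The region at Mrpl18 lay inside that gene, 220 bp before a listed start and 18 bp outside Tcp1, which encodes a subunit of the cytosolic chaperonin (6.76 and 3.49, 32 and 17 fragments). With only the nearest gene counted and a summit inside a gene taken as nearest to it, 11 of the 78 genes (14.1%) had a shared region, against 10.6% of all genes.

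**Figure D3:**
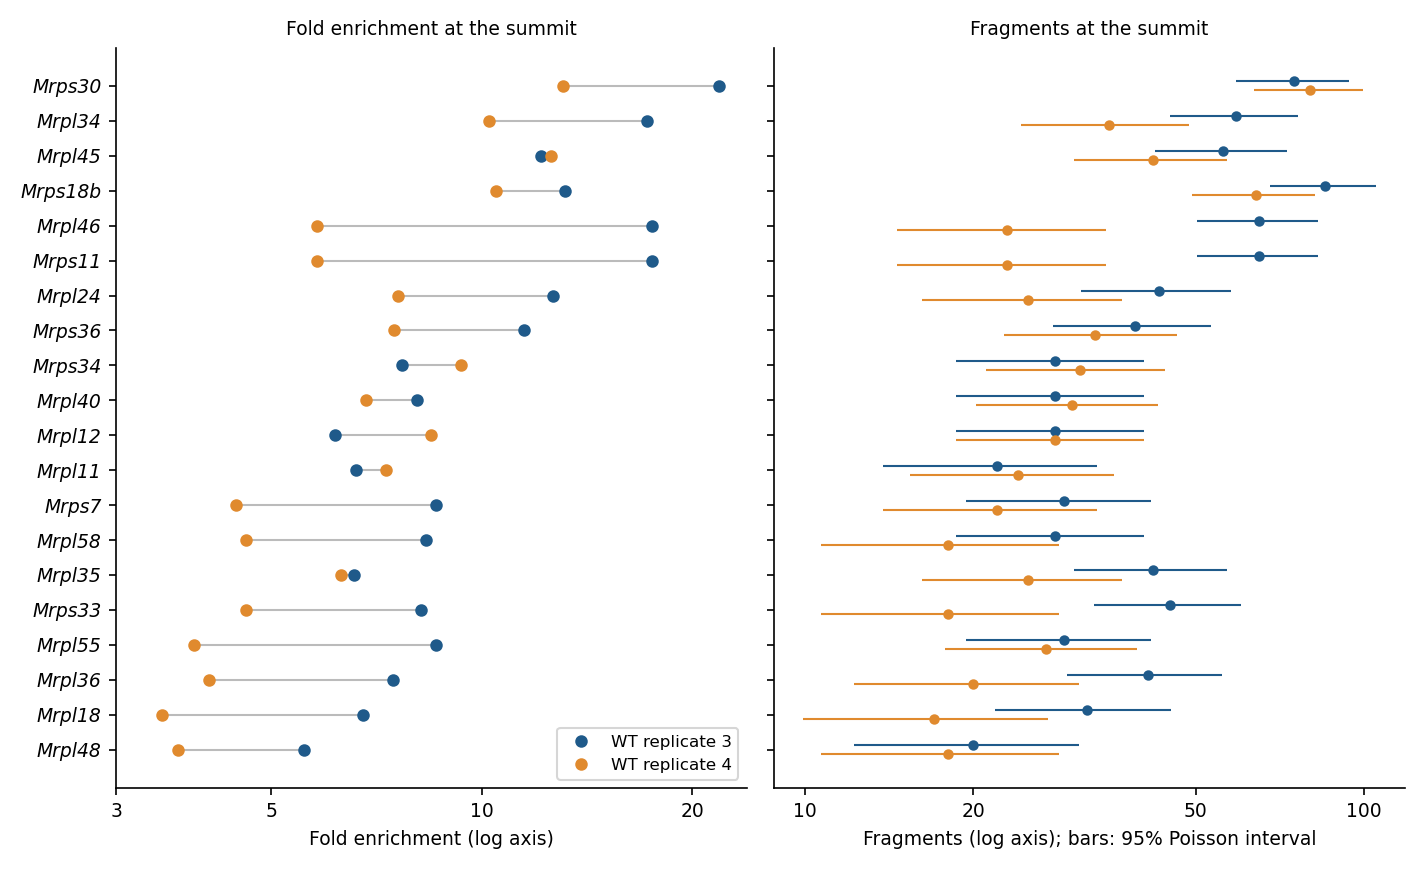
Fold enrichment (left, log axis) and fragments at the summit with 95% Poisson intervals (right, log axis) of the shared region of each of 20 Mrpl and Mrps genes, in WT replicate 3 (blue) and WT replicate 4 (orange), ordered by the mean fold. Mrps30 leads with 21.8 and 13.1, and Mrpl46 and Mrps11, which share a region, are farthest apart between the hearts at 17.5 and 5.81.

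The fold enrichments of these regions lay close to those of other regions near genes. Their median fold enrichment, averaged over the WT hearts, was 7.32, against 7.65 for all 2598 shared regions within 10 kb of a protein-coding gene, and 8 of the 19 lay above that value. Within WT replicate 3 the medians were 8.32 and 9.19, and within WT replicate 4 they were 6.82 and 6.05. The fold enrichments ranged from 5.57 to 21.8 in WT replicate 3 and from 3.49 to 13.1 in WT replicate 4. They were higher in WT replicate 3 at 15 of the 19 regions, as at 82.1% of all regions near genes. Regions were 297 to 887 bp wide (median 582 bp, 541 bp for all), and the summits of the hearts lay 2 to 162 bp apart, with a median of 27 bp.

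Peaks of WT replicate 3 outside the shared regions had lower fold enrichments. The 66 peaks at these genes that were in no shared region had a median fold enrichment of 5.17 in that heart, and the 19 in shared regions 8.32. Near any gene the WT replicate 3 median was 5.45 for all peaks and 9.19 for shared regions. A shared region also needs a peak in the shorter WT replicate 4 list and takes its strongest WT replicate 3 partner. Higher values in shared regions are thus partly built in and are not particular to these genes. Of the 85 peaks 22.4% were in a shared region, against 25.02% of all WT replicate 3 peaks near genes. Among genes with a peak in WT replicate 3 alone, the strongest belonged to Mrpl1 (10.6, 36 fragments, 472 bp inside the gene), Mrpl44 (8.48, 31 fragments, 42 bp inside) and Mrpl49 (8.32, 28 fragments, 7013 bp outside). All 3 encode proteins of the large subunit. Mrps36, which also has a shared region, had a second peak in this heart outside it (9.76, 33 fragments). Of the 55 genes with a WT replicate 3 peak 34 had a single one and 21 had more, with up to 4 at Mrpl34 and Mrps23. The 23 genes with no peak included Mrpl9, Mrpl32, Mrps5, Mrps12 and Mrps22.

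The other genes of mitochondrial protein synthesis were set beside these by lists that use no peak values. Among all protein-coding genes 15.2% had a shared region. Of 5 mitochondrial ribosomal proteins with other symbols, 4 had a shared region (80.0%). Aurkaip1 led (12.2 in WT replicate 3 and 5.81 in WT replicate 4), with the summit 1057 bp outside the gene. Chchd1 (11.9 and 5.81) and Ptcd3 (8.90 and 7.69) followed. Translation factors of the mitochondria had one in 3 of 13 cases (23.1%), but these were strong: Mtrf1, a release factor gene, had 33.0 and 19.8, with the summit 2873 bp outside the gene, Guf1, the gene of a translational GTPase, had 27.8 and 15.9, 59 bp inside the gene, and Mtres1 had 13.2 and 9.05. Mitochondrial aminoacyl-tRNA synthetases and the related amidotransferase genes had one in 6 of 22 cases (27.3%), led by Qrsl1 (16.4 and 16.6). Genes of ribosome assembly and rRNA modification had one in 4 of 27 cases (14.8%), close to the share of all genes. They were led by Mpv17l2 (11.8 and 10.5), with the summit 6075 bp outside the gene. Genes of mitochondrial transcription and DNA maintenance had one in 2 of 12 cases (16.7%), also close to the share of all genes. These were Polg2 (8.52 and 7.01) and Tefm (6.89 and 5.55), with summits 9067 and 5657 bp from these genes.

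Complex I genes, whose mitochondrially encoded partners are made on these ribosomes, had a shared region in 13 of 40 cases (32.5%, against 15.2% of all genes). They were led by Ndufs4 (18.7 in WT replicate 3 and 14.3 in WT replicate 4). Genes of the cytosolic ribosome had one in 13 of 87 cases (14.9%), close to the share of all genes. They were led by Rpl18 (51.1 and 25.8, with the summit 7616 bp outside the gene), Rpl24 (21.2 and 13.4) and Rps3a1 (19.9 and 7.90). The median fold of the strongest shared region per gene was 7.39 for Mrpl and Mrps genes, 9.40 for complex I genes, 7.42 for cytosolic ribosomal genes and 7.97 for all genes with a region. Differences between these lists were not tested.

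**Figure D4:**
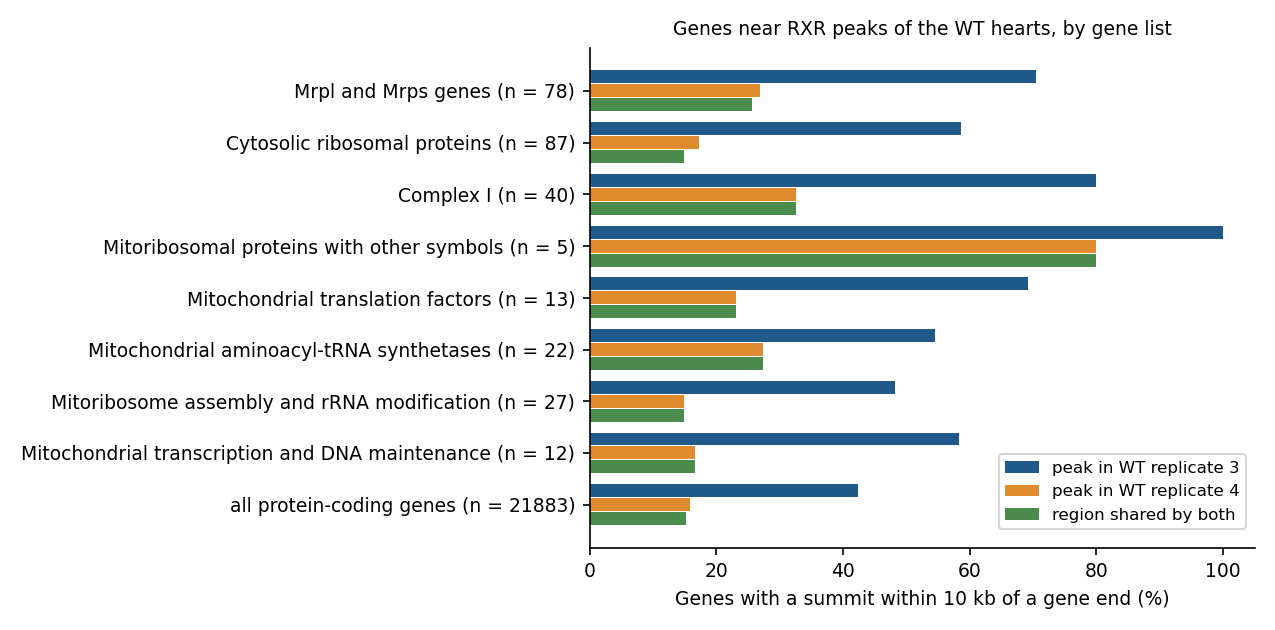
Share of genes (horizontal, %) with a peak in WT replicate 3, a peak in WT replicate 4 or a region shared by both, within 10 kb of a gene end, for Mrpl and Mrps genes and other lists of mitochondrial translation, complex I and the cytosolic ribosome, with all protein-coding genes at the bottom. Mrpl and Mrps genes stand at 70.5, 26.9 and 25.6%, and all genes at 42.4, 15.8 and 15.2%.

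Promoters were searched for motifs over 300 bases, from 250 before to 50 after each listed start, on both strands, in 75 promoters of 69 of the 78 genes and in 21262 promoters of protein-coding genes. A shared summit lay inside 9 of the 75 windows (12%), against 4.21% of all windows: those of Mrpl11, Mrpl18, Mrpl40, Mrpl45, Mrpl46, Mrpl55, Mrps11, Mrps30 and Mrps33. The hexamer AGGTCA was as common in these genes' promoters (11 of 75, 14.7%) as in all (14.7%). Of the 9 windows with a summit 1 held it, that of Mrps30, against 170 of the 895 windows of all genes with a shared summit (19.0%). Direct repeats of the hexamer on 1 strand with 1 or with 4 bases between, known as elements of RXR with PPAR and with thyroid hormone or liver X receptors, were found in 0 of 75, and in 10 and 0 of the 21262. Neither was found in any of the 895 windows with a shared summit. Exact matches were so rare that their absence does not set these promoters apart, and looser matches were not searched. The element TCAAGGTCA of estrogen-related receptors, which also contains the hexamer, was found in 0 of 75 and 0.334% of all.

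Motifs of factors known for nuclear-encoded mitochondrial genes had higher shares here than among all promoters, a difference that was not tested. CCGGAAG, bound by ETS factors such as GABP, was in 26 of 75 promoters (34.7%, against 11.6% of all). AAGATGGCG, the motif of YY1, was in 8 (10.7%, against 1.83%), and GCGCAT followed at once by GCGC, that of NRF1, in 3 (4%, against 1.33%). Of the 9 windows with a shared summit, CCGGAAG was in those of Mrps33 and Mrpl18, AAGATGGCG in that of Mrps11 and the NRF1 motif in 0. Among the 895 windows of all genes with a shared summit the shares were 26.0%, 3.80% and 2.68%. Median GC content was 58.7% in these promoters and 56.3% in all, and the median number of CG dinucleotides 21 and 13, and their part in the motif shares was not tested. Of the 69 genes 24 (34.8%) had the start of another protein-coding gene pointing away from theirs within 1000 bp upstream, against 8.48% of all genes. Of these 24 genes 6 had a shared region, against 25.3% of all such genes, and of the other 45 genes 13 did (28.9%, against 14.4%).

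**Figure D5:**
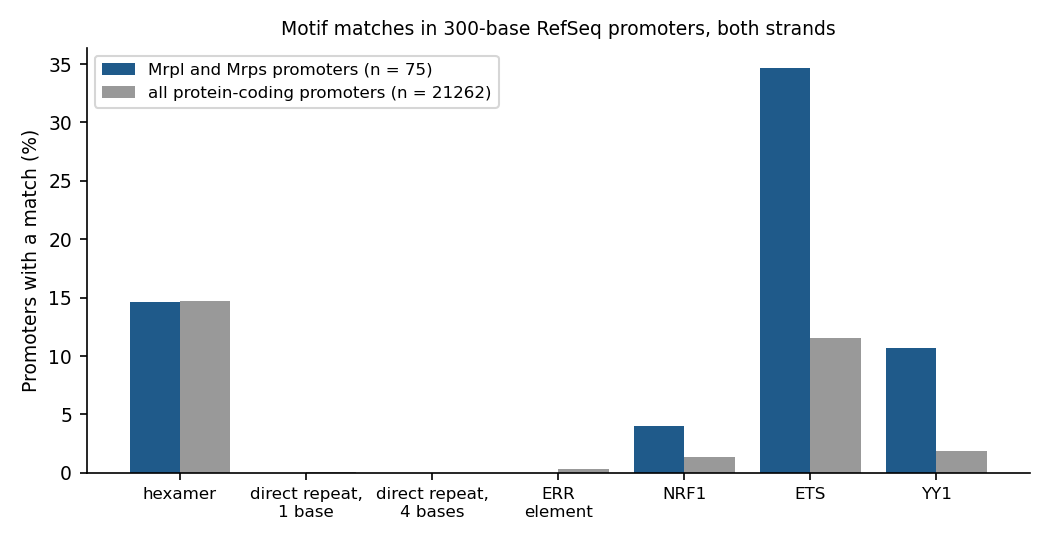
Share of promoters (vertical, %) with a match to each of the 7 motifs, in 300-base windows on both strands, for Mrpl and Mrps promoters (blue) and all protein-coding promoters (grey). The hexamer stands at 14.7% in both, and the ETS motif at 34.7% and 11.6%.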

How the data were processed

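RXR immunoprecipitates and inputs of 2 edKO and 2 WT hearts were analysed from 4 deposited peak lists, 1 per heart. Per the submitters' processing notes, cutadapt, BWA, SAMtools and MACS3 were used on mm10 (GRCm38) with no version or setting named. The authors deposited a fold enrichment per peak, a ratio of summit pileup to local background, and their deposited −log10 p and −log10 q values and score rate each peak within its own list. Input libraries entered only as background. Positions are printed 1-based.

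Fold enrichment (pseudocount 1) and −log10 p were solved together for fragments at the summit and local background, and 100% of peaks in every list gave whole fragments within 0.02. No source used here says whether duplicates were removed, so Poisson intervals cover counting error only. The solver and the distance and overlap rules were tested on simulated data. Peaks of the WT hearts overlapping by at least 1 bp were joined into regions with 1 peak per heart, with the summit of WT replicate 3. Genes, promoters and starts came from RefSeq tables of GRCm38.p6; 69 of 78 genes had a listed start, and in the comparison lists every gene but 1 matched. Genotypes were compared by an exact permutation test of peak numbers, as unpaired; genes and peaks are not replicates, so lists are given by counts beside all protein-coding genes. Named were all genes with a shared region, those next to the 10 kb limit, the 3 strongest with a peak in 1 WT heart, and up to 3 per comparison list. Mrpl41 and the examples of genes without a peak were named after their values were seen. Members and lists were chosen with earlier results of these data known. Alternatives covered distance, peak thresholds, overlap, nearest gene, pairing and leaving out hearts. Python 3.11.15, numpy 2.4.6, pandas 2.3.3, scipy 1.17.1 and matplotlib 3.10.9 were used.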

Additional observations from a re-analysis of the deposited data

How the results depend on the processing

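The genotype difference in peaks kept its sign under every alternative run, from −20 without WT replicate 3 (−85 without WT replicate 4) to −132 at 50 kb, and no design here can pass 0.05. With hearts of the same number taken as pairs (replicate block), it was −52.5 with an exact sign-flip p = 0.5, and the labels do not say that the numbers mark a litter or day. No Mrpl or Mrps gene had an edKO peak except at 50 kb, where 1 did (Mrpl21). The 20 genes with a shared region became 13 at 1 kb (16.7%, against 8.38% of all genes), 31 at 50 kb (39.7%, against 31.9%), 11 with only the nearest gene (14.1%, against 10.6%), 13 with an overlap of 50% of both peaks (16.7%, against 11.5%) and 13 with a −log10 p of at least 10 (16.7%, against 11.1%), an alternative chosen after seeing the data. With a WT heart left out no region can be shared, so all peaks of the other WT heart were counted instead. This gave 21 to 55 genes (26.9 to 70.5%, against 15.8 to 42.4%), the counts already given for each heart. The 21 genes of WT replicate 4 became 34 at 50 kb (43.6%, against 33% of all genes), 11 with only the nearest gene (14.1%, against 11.2%) and 13 with a −log10 p of at least 10 (16.7%, against 11.7%), and the 55 of WT replicate 3 became 35 with only the nearest gene (44.9%, against 32.9%). The median fold enrichment of 7.32 became 8.51 with the 50% overlap and 8.997 with a −log10 q of at least 5. With 1 WT heart left out, the median over all peaks of the other at these genes was 5.57 to 6.56. The 12 regions within 1000 bp of a gene end became 7 with the 50% overlap. With 1 WT heart left out, 13 to 47 peaks of the other lay within that distance. Where a setting only drops peaks or genes, fewer remain by construction; the cause of other shifts was not tested. Fragments at a summit in WT replicate 4 were as low as 17, which limits what that heart can show.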
